A study of Mus musculus with 4 samples.

Results

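Border peaks are the narrow RIF1 intervals that lie close to, but outside, the wide domains bound by the same protein in activated mouse B cells. They were chosen by position in the list of intervals. A border peak is an interval under 50 kb wide on an autosome, with at most 100 kb between its edge and that of an interval of 50 kb or more. By this rule 401 of 15635 autosomal peaks (2.56%) were border peaks, out of 16332 intervals in the whole list. The 285 autosomal wide intervals beside which they lie are called wide domains here. The other 15234 autosomal peaks are called far peaks. Distance to a wide domain was thus used to choose the members, and the counts by distance are given as a description.

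ChIP-seq, in which chromatin is precipitated with an antibody and its DNA sequenced, was performed on primary splenic B cells isolated with anti-CD43 beads. The cells were activated with LPS (5 µg/ml) and IL-4 (5 ng/ml) and harvested after 72 h. Rif1FH cells (n = 2) came from Rif1FH/FH mice, whose endogenous RIF1 carries Flag and HA epitopes. Rif1WT cells (n = 2) came from C57BL/6 (Rif1WT/WT) mice with untagged RIF1, received the same treatment and served as the negative control. The list holds positions only, kept by the authors from both Rif1FH replicates. There are therefore no values per sample, no depth and no comparison with Rif1WT cells, and the printed 95% intervals cover counting error along the genome only. The labels and the protocol name different reagents for the antibody, as described with the processing.

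RIF1 is a large chromatin protein that recruits protein phosphatase 1 and is known for restraining the firing of late origins of replication. It is also known in B cells for protecting broken DNA ends from resection during class switch recombination, downstream of 53BP1. Its binding takes the form of broad RIF1-associated domains (RADs), which the EDD software detects as long stretches of modest enrichment, and of narrow peaks, which MACS detects as short stretches of strong enrichment. The study asked where RIF1 binds in activated B cells. For border peaks, the question is what lies immediately outside the broad domains.

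The sequences that carry the account below are of 2 kinds. The first are the 200 bases upstream of the annotated start of 6 genes with a border peak covering that stretch. These are Msh6, Rnf8 and Pds5b, the members of the DNA repair and cohesin gene lists with such a peak, and Appl1, Zfp426 and Mrps28, the nearest to a domain among genes whose upstream stretch overlaps no annotated exon. For that reason Cdk11b, which lay between Appl1 and Zfp426 in distance, is not shown. Sequences are from mm9 (NCBIM37), written 5′ to 3′ in the direction of the gene. Capitals mark matches on either strand to any of 12 short motifs.
Msh6, chr17:88374190-88374389, plus strand: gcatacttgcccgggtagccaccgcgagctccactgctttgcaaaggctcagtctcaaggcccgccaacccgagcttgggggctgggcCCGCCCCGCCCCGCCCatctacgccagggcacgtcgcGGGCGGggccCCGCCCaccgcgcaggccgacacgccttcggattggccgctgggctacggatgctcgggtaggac
Rnf8, chr17:29751535-29751734, plus strand: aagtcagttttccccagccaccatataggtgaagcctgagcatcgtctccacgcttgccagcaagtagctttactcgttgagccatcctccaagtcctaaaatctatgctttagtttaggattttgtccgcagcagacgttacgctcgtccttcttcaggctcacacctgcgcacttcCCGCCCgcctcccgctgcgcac
Pds5b, chr5:151476114-151476313, plus strand: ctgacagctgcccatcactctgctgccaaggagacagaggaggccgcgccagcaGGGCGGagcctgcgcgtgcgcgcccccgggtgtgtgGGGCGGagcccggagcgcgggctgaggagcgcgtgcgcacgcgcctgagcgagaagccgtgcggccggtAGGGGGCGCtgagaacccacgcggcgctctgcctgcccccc
Appl1, chr14:27784419-27784618, minus strand: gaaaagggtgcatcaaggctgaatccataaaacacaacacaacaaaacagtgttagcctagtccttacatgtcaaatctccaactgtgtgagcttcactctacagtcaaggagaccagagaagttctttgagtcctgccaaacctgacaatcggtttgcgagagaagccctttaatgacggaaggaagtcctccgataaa
Zfp426, chr9:20297191-20297390, minus strand: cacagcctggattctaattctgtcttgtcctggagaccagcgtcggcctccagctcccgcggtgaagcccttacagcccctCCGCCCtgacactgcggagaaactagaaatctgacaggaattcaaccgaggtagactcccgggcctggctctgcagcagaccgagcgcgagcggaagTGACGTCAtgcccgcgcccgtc
Mrps28, chr3:8923919-8924118, minus strand: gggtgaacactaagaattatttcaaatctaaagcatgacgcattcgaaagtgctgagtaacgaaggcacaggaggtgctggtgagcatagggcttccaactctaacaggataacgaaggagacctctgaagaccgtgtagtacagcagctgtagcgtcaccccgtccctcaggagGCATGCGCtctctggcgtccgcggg
Upstream of Msh6, Rnf8, Pds5b and Zfp426 the capitals include the GC box read by SP and KLF factors (GGGCGG, or CCGCCC on the other strand), and upstream of Msh6 several of these boxes overlap. Pds5b also held the core of a CTCF site (AGGGGGCGC), Zfp426 a CREB/ATF site (TGACGTCA) and Mrps28 an NRF1 site (GCATGCGC). The stretch upstream of Appl1 matched none of the 12. GC boxes are common, and were present in 43.7% of 300-base promoters of all autosomal coding genes, against 3.35% for the NRF1 letters, 2.31% for CREB/ATF and 1.499% for the CTCF core. A match describes the letters in the window and is not a measured site.

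The second kind comes from border peaks outside genes. The border peak closest to any domain lay only 202 bp from its edge on chromosome 10, and its central 200 bases are the first sequence shown. The next pair are the central 200 bases of peaks in a single gap between 2 domains on chromosome 6, chosen after their values were seen. In the chromosome 6 pair, capitals mark bases within any run of 31 letters that also occurs, on either strand, in another of the 9 peaks in that gap.
chr10:95543415-95543614, plus strand: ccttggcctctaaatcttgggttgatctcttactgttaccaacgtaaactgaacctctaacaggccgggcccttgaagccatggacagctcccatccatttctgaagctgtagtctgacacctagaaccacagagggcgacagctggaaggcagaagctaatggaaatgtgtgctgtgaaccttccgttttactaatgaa
chr6:47631312-47631511, plus strand: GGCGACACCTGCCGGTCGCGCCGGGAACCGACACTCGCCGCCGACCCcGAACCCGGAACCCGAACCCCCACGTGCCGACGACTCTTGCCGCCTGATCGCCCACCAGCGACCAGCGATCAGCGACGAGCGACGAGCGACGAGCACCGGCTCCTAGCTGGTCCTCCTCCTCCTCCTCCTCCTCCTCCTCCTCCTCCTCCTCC
chr6:47690319-47690518, plus strand: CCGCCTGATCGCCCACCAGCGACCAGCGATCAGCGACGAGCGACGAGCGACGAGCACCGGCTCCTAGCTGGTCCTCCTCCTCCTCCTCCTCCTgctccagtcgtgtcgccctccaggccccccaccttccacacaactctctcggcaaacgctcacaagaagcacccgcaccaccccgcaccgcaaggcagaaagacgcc
In the first chromosome 6 peak, 199 of the 200 bases shown were shared with another peak of the gap, and in the second 93 were shared, ending in a run of TCC repeats. The sequence from chromosome 10 matched none of the 12 motifs.

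The most prominent feature of the distance profile was a margin with few peaks directly outside the domains. Within 20 kb of a domain, 12 peaks lay in 11.2 Mb of sequence, or 1.07 peaks per Mb (95% exact Poisson interval 0.551 to 1.86). Between 20 and 40 kb the density was 6.74 peaks per Mb (5.30 to 8.45). The limit of the margin was placed at this step, so nothing is read from how these intervals compare. It was 8.04 peaks per Mb at 40 to 60 kb, 10.0 at 60 to 80 kb and 10.3 at 80 to 100 kb. Farther out the density was 10.5 peaks per Mb at 100 to 200 kb (9.64 to 11.4) and 8.94 at 500 to 1000 kb. Over all autosomal sequence more than 100 kb from a domain it was 7.20 peaks per Mb (7.08 to 7.31).

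Border sequence as a whole, 55.5 Mb or 2.56% of the autosomal sequence outside domains, therefore held 7.22 peaks per Mb (6.53 to 7.96), near the far density. This value joins a nearly empty margin with a fuller zone. From 20 to 100 kb the density was 8.78 peaks per Mb (7.93 to 9.70), above the far value and below that at 100 to 200 kb. The limit of 20 kb was chosen after the profile was seen.

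**Figure D1:**
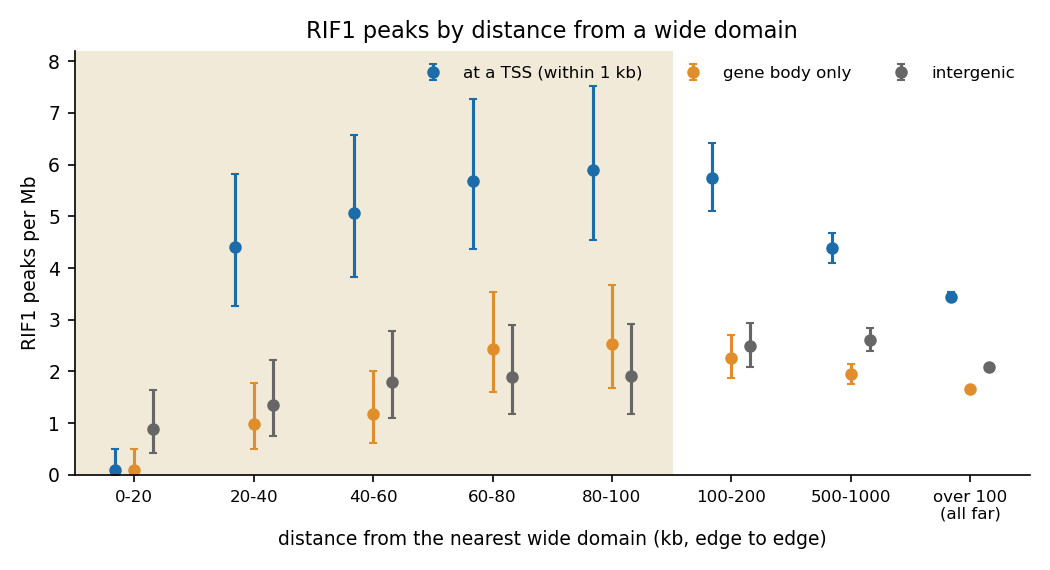
Density of RIF1 peaks per Mb of sequence (vertical axis) by distance from the nearest wide domain (horizontal axis, kb), split by location, with 95% exact Poisson intervals and the border shaded. TSS peaks stood at 0.0889 per Mb within 20 kb and 4.41 at 20 to 40 kb, and peaks in gene bodies at 0.989 per Mb at 20 to 40 kb and 2.54 at 80 to 100 kb.

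Domain edges lay on regular steps. Of the 570 edges, 568 (99.6%) were multiples of 18 kb or 20 kb, with 221 on the former only, 287 on the latter only and 60 on both. At edges on the 20 kb steps alone, 0 of 202 border peaks lay within 20 kb, and the nearest was 20313 bp away. At edges on the 18 kb steps alone, 6 of 146 did, 4 of them in the chromosome 6 gap, and the next peak lay at 21601 bp. At edges on both steps, 1 of 48 did, and the next lay at 20595 bp. At the 2 edges on neither step, 5 of 5 did, all in that gap. The part of the edge steps in the empty margin was not tested. Values for 20 to 100 kb are given beside the main densities and shares below.

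The 12 peaks inside the margin were concentrated in few places. A gap of 71.9 kb between 2 domains on chromosome 6 (47628001 to 47699926) held 9 of them, all intergenic, at widths from 300 to 1646 bp. Each of these 9 peaks shared sequence with another of them, to unequal degrees. A median of 91.5% of the distinct 31-letter words of a peak also occurred in another peak of the gap (lowest 36.5%, highest 100%), and the share exceeded 50% in 7 of the 9. Among the other 392 border peaks, the median share of words found in another border peak was 0% and the highest 11.1%. The authors kept uniquely aligned reads only, and what part the repeated sequence had in these calls was not tested. Without these 9 peaks, 59.7% of the border peaks lay at a TSS, against 58.4% with them.

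The remaining 3 peaks in the margin lay on chromosomes 10, 14 and 17. That on chromosome 14 (27782999 to 27784965, 1967 bp) covered the start of Appl1, which encodes an adaptor protein of early endosomes, at 7.04 kb from the domain. That on chromosome 17 lay in Prss22, a serine protease gene, at 10266 bp. The one on chromosome 10, at 202 bp, was intergenic.

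Border peaks lay at gene starts more often than far peaks. Of the 401, 234 came within 1 kb of an annotated transcription start site (TSS), or 58.4% (95% Wilson interval 53.5 to 63.1%), against 47.9% of far peaks (47.1 to 48.7%). The difference was 10.4 percentage points (Newcombe interval 5.49 to 15.2). Intergenic peaks made up 21.7% of border peaks (17.9 to 26.0%) and 28.9% of far peaks (28.2 to 29.6%), a difference of -7.20 points. Peaks over a gene body only made up 19.95% (16.3 to 24.1%) against 23.2% (22.5 to 23.9%), where the intervals overlapped. Between 20 and 100 kb the TSS share was 59.9% (55.0 to 64.6%), against 49.0% (46.8 to 51.3%) for peaks 100 to 500 kb away. Next to the limit the shares were closer, at 57.0% from 80 to 100 kb and 54.7% from 100 to 200 kb. A high TSS share was thus not particular to the border.

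**Figure D2:**
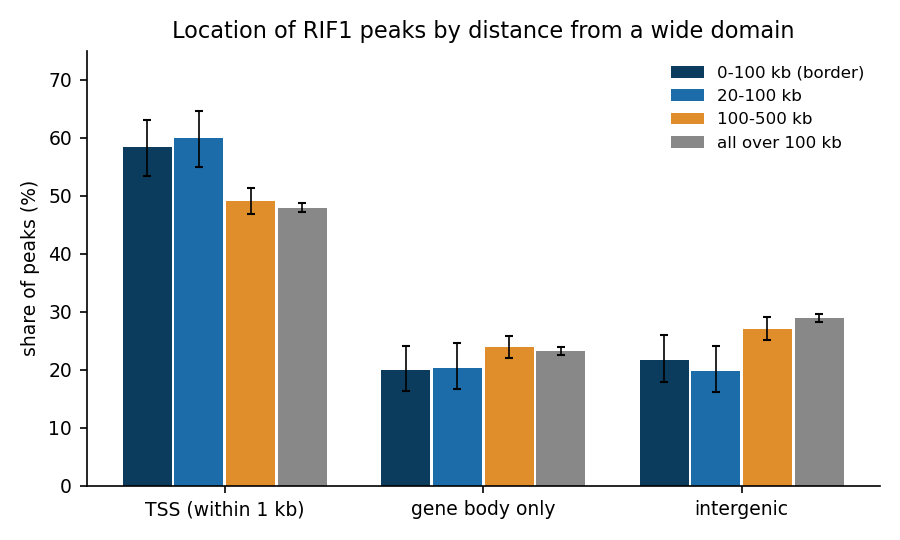
Share of peaks (vertical axis, %) at a TSS, in a gene body only and in intergenic sequence, by distance from the nearest wide domain, with 95% Wilson intervals. The TSS bars stood at 58.4% for all border peaks and 59.9% at 20 to 100 kb, above the 49.0% at 100 to 500 kb and 47.9% over all far peaks.

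The densities of the classes depended on the sequence they were compared with. From 20 to 100 kb, TSS peaks stood at 5.26 per Mb (4.61 to 5.98), against 3.45 (3.37 to 3.53) over all far sequence and 4.69 (4.40 to 5.00) at 100 to 500 kb. Peaks away from TSSs stood at 3.52 per Mb (2.99 to 4.12), against 3.75 (3.67 to 3.83) over all far sequence and 4.88 (4.58 to 5.19) at 100 to 500 kb. Against all far sequence the higher TSS share thus went with more TSS peaks per Mb, while the others were slightly fewer, with overlapping intervals. Against sequence at 100 to 500 kb it went with fewer peaks away from TSSs, while TSS peaks were somewhat more, with overlapping intervals. Overlap does not show that densities were equal. At 100 to 200 kb alone, TSS peaks stood at 5.73 per Mb (5.11 to 6.41) and the others at 4.75 (4.19 to 5.37). Within the border, peaks away from TSSs numbered 2.34 per Mb at 20 to 40 kb, 2.98 at 40 to 60 kb, 4.33 at 60 to 80 kb and 4.44 at 80 to 100 kb. Gene body peaks alone were at 0.989 per Mb (0.494 to 1.77) at 20 to 40 kb and 2.54 (1.69 to 3.67) at 80 to 100 kb, where the intervals overlapped slightly.

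Border peaks were somewhat narrower than far peaks. Their median width was 1234 bp (quartiles 888 and 1833 bp, range 300 to 5781 bp), against 1374 bp (919 and 1997 bp). Leaving out the margin gave the same median of 1234 bp. The difference was present in each class, with medians of 1476 against 1564 bp at TSSs, 952.5 against 1162 bp in gene bodies and 1048 against 1213 bp in intergenic sequence. Median GC content was 52.1% in border and 50.2% in far peaks. At TSSs it was 54.4% in both, and among intergenic peaks 48.2% against 47.0%.

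Across the 19 autosomes, the TSS share of border peaks was 57.9 ± 9.09% (SD, n = 19 autosomes) and that of far peaks 47.3 ± 5.03%. It was higher in border peaks on 15 autosomes and lower on 3. The intergenic share was lower on 15 and higher on 4, and the median width was lower on 16. Peak density showed no such pattern, at 7.45 ± 2.39 per Mb in the border and 7.36 ± 1.42 far from domains, and was higher in the border on 8 of 19. Chromosome 6, which holds the gap described above, had the highest border density (12.5 peaks per Mb) and chromosome 7 the lowest (2.63).

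**Figure D3:**
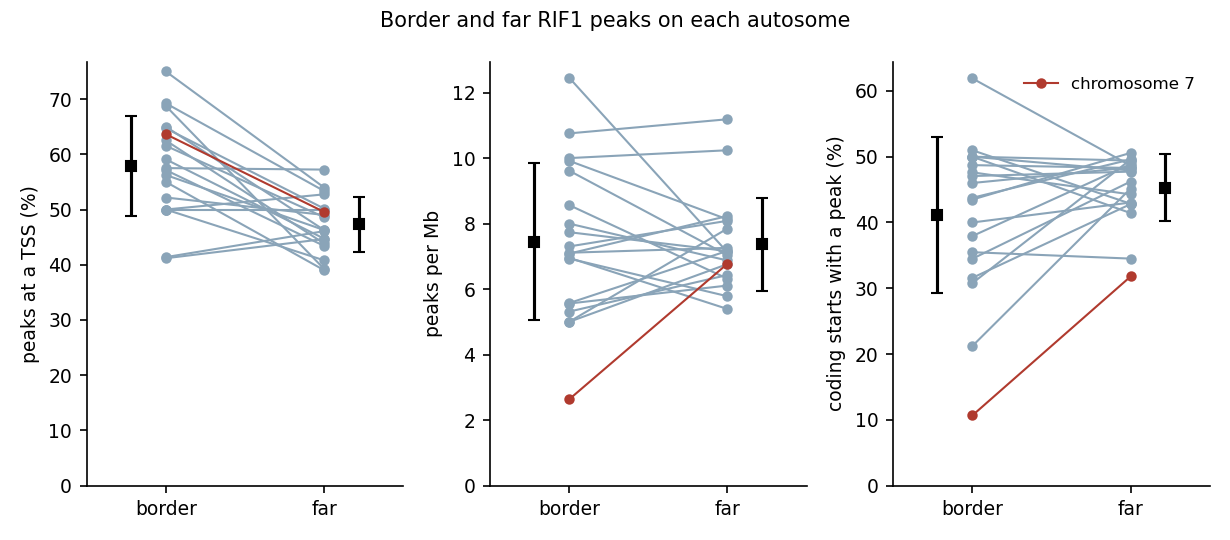
Each line joins the border value (left) and the far value (right) of an autosome, for the share of peaks at a TSS (%), peaks per Mb and the share of coding gene starts with a peak (%), with black squares for the mean ± SD over 19 autosomes. The TSS share was higher in the border on 15 autosomes, and chromosome 7, in red, was lowest in the border for density (2.63 per Mb) and for coding starts with a peak (10.7%).

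Seen from the genes, 613 autosomal coding genes had their start in border sequence. Of 21418 autosomal coding genes, 245 (1.14%) had a border peak within 1 kb of any of their starts, and 34.2% had any listed peak there. Since distance to a domain fixes the first share, nothing is read from it. Coding starts were fewer in the margin than beyond it. They stood at 6.49 per Mb within 20 kb, 11.1 at 20 to 40 kb and 12.2 over 20 to 100 kb, against 7.498 over all far sequence and from 18.6 to 23.1 inside the domains. Gene density was thus lower in the margin than on either side of it.

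Few starts in the margin were occupied, but its limit was placed where listed peaks begin, so nothing is read from that low share. Of 73 coding starts within 20 kb of a domain, 1 had a peak, that of Appl1 (1.37%, 95% Wilson interval 0.242 to 7.36%). From 20 to 100 kb, 234 of 540 had a peak (43.3%, 39.2 to 47.5%), near the 44.7% (43.9 to 45.5%) of 15870 starts in far sequence. The interval also overlapped that at 100 to 500 kb, where the share was 38.7% (36.8 to 40.7%). In steps of 20 kb from 20 kb outward the share was 42.7, 40.7, 43.7 and 46.0%, with intervals that all overlapped. Over the whole border it was 38.3% (34.6 to 42.2%), or -6.36 points against far starts. The difference was -3.59 points without chromosome 7, and -0.395 points (-4.64 to 3.97) against starts 100 to 500 kb away. What part each of these had was not tested.

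**Figure D4:**
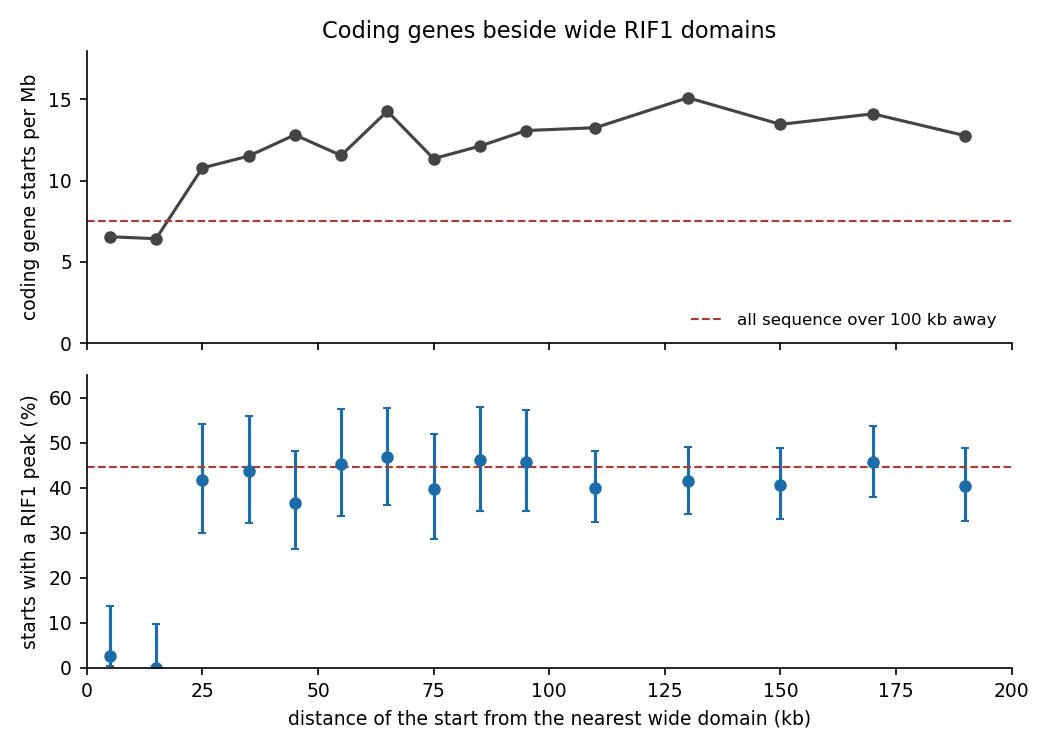
Coding gene starts per Mb (upper panel) and the share of those starts with a RIF1 peak within 1 kb (lower panel, %, with 95% Wilson intervals) by distance from the nearest wide domain (kb), with dashed lines at the values over all far sequence. The share was 1.37% within 20 kb and 43.3% from 20 to 100 kb, near the dashed line at 44.7%. The 20 kb limit was placed after the profile was seen, so nothing is read from the first share.

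The genes that start in the margin included many that are known from other tissues. Families were counted by symbol after the genes were seen. Olfactory and vomeronasal receptor genes, which are used by sensory neurons of the nose, were 17 of the 73 (23.3%, 15.1 to 34.2%), against 42 of 540 (7.78%, 5.81 to 10.3%) from 20 to 100 kb and 8.31% of far coding starts. Such genes lacked a peak almost everywhere, at 0 of 17 and 0 of 42 starts in the border and at 2 of 1319 (0.152%) far from domains. Others in the margin were Mb (myoglobin of muscle), Pvalb (the calcium-binding protein parvalbumin), Crx (a photoreceptor transcription factor), Cyp11a1 (a steroid-synthesis enzyme) and the keratin genes Krt25 and Krt26, named after their values were seen, and all lacked a peak. Broadly used genes were present too, such as E2f5 and Il6st, the latter encoding the gp130 receptor subunit, also without a peak. Leaving out the receptor genes, 1 of 56 margin starts had a peak (1.79%, 0.316 to 9.45%). This share, too, depends on where the limit of the margin was placed. These 56 still include the other genes named here, and what part gene content had in the low share was not tested.

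Zinc finger genes named Zfp, many of which encode DNA-binding repressors, were often occupied both in the border and far from it. From 20 to 100 kb a peak was present at 8 of 10 of them, against 114 of 162 (70.4%) far from domains. On chromosome 7, receptor genes made up 25 of 75 border starts (33.3%), and 8 of the 50 other starts had a peak (95% Wilson interval 8.34 to 28.5%). Far starts outside the receptor family had a peak at 48.7% (47.9 to 49.5%) over all autosomes. That share was not computed for chromosome 7 alone. With receptor genes included, 10.7% of border starts and 31.8% of 1233 far starts on chromosome 7 had a peak. Each was the lowest share of any autosome, so few occupied starts on chromosome 7 were not particular to the border.

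Among border peaks at a coding start, the one nearest to a domain was that of Appl1, described above. After it came Cdk11b at 20.7 kb, a kinase that acts in transcription and splicing, and Zfp426 at 21.2 kb. Mrps28, a subunit of the mitochondrial ribosome, followed at 21.6 kb. A single peak of 1104 bp on chromosome 11 (51576597 to 51577700), at 22.3 kb, covered the divergent starts of Sar1b and Sec24a, which both encode parts of the COPII coat that moves proteins out of the endoplasmic reticulum. Next were Armc9 (22.4 kb), a gene of the primary cilium, Cbr3 (22.9 kb), a carbonyl reductase, Anks3 (23.9 kb) and Actr8 (24.0 kb), an actin-related subunit of the INO80 chromatin remodeller. The upstream sequences of Appl1, Zfp426 and Mrps28 are those printed above. Apart from Appl1, these peaks fell between 20.7 and 24.0 kb from a domain. That follows from naming the nearest genes and from where the limit of the margin was placed.

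Most of the genes touched had a single border peak. Border peaks lay over, or within 1 kb of a start of, 298 coding genes, of which 260 had 1 peak, 31 had 2, 6 had 3 and 1 had 4. The gene with 4 was Aim1, which encodes a protein with crystallin-like repeats, on chromosome 10 (43670113 to 43724652), with peaks from 68.2 to 90.9 kb from the domain. Those with 3 were Clec12a, an inhibitory lectin receptor of myeloid cells, Litaf, a lysosomal membrane protein induced by LPS, Ncoa2, a coactivator of nuclear receptors, Sec24a, Serinc5, a membrane protein known to restrict retroviruses, and Ttll11, a tubulin-modifying enzyme. Of the genes with 2, the first by symbol were 9530077C05Rik, Acap2 and Akna. Ncoa2 starts inside a domain, and its 3 peaks lay on the part of the gene that extends outside it, from 29.2 to 71.6 kb away.

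Other genes also crossed a domain edge. Of the 570 edges, 284 (49.8%) fell inside a coding gene, but the share for other positions was not computed, so nothing is read from it. Border peaks over such genes numbered 74 of 401 (18.5%, 15.0 to 22.5%), on 62 genes. These included Blm, a helicase of the RecQ family, Rad54b, which acts in recombination, Pou2f1, which encodes the OCT1 transcription factor, and the histone chaperone Hira, each with 1 peak and named after the values were seen. Transcription direction showed little difference. Of the border coding genes, 302 pointed away from the domain and 311 toward it, and a peak was present at 36.1% (30.9 to 41.7%) and 40.5% (35.2 to 46.1%) of them, with overlapping intervals.

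The 5 widest border peaks all lay at TSSs. The widest, of 5781 bp on chromosome 15 (78000124 to 78005904), covered the start of Ift27, a small GTPase of the intraflagellar transport complex in cilia, at 34.1 kb from a domain. It was followed by peaks at Rusc1 (5412 bp), Prkab2 (5163 bp), a regulatory subunit of AMP-activated kinase, Gramd1b (5012 bp), which transports cholesterol, and Kcnj1 (4714 bp), a potassium channel known from the kidney. Their distances from a domain ranged from 34.1 to 93.7 kb, so none was in the margin.

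Domains differed in how many border peaks they had. At least 1 was present beside 193 of 285 domains (67.7%, 62.1 to 72.9%), with peaks on both sides of 60 and on a single side of 133, and 92 domains had none. Counting only peaks beyond 20 kb, the share was 66.7% (61.0 to 71.9%). The share for flanks placed elsewhere was not computed, and border density was near the far density (7.22 against 7.20 peaks per Mb). Nothing is therefore read from these shares. Each peak was assigned to its nearest domain, which gave 1.41 ± 1.47 peaks per domain (SD, n = 285 domains). A single peak was present beside 86 domains, 2 beside 54 and 3 or more beside 53. The lower-coordinate and higher-coordinate sides had 207 and 194 peaks. The 9 border peaks within 100 kb of 2 domains were those of the chromosome 6 gap.

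**Figure D5:**
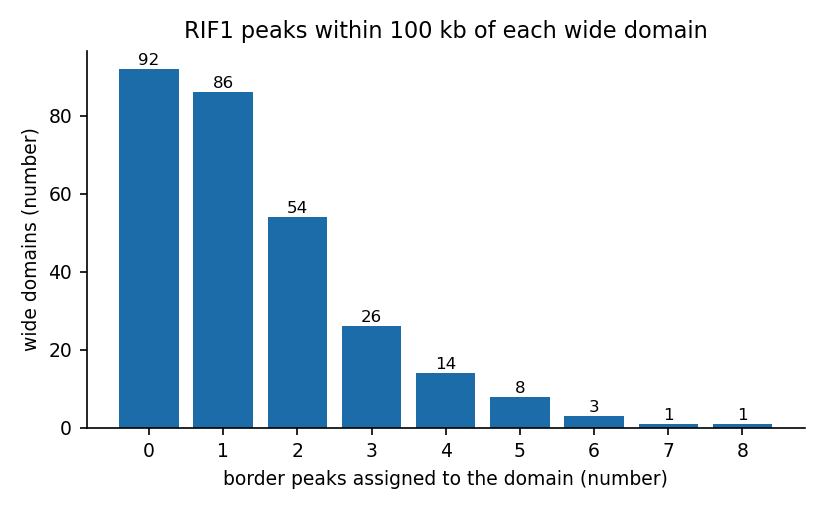
Number of wide domains (vertical axis) by the number of border peaks assigned to them (horizontal axis). Of 285 domains, 92 had 0 border peaks, 86 had 1, 54 had 2 and 53 had 3 or more, up to 8.

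The domain with the most border peaks, 8, was that on chromosome 6 (47699927 to 47840000) beside the repeated sequence, and 5 of its peaks lay in that gap. Its other 3 were at TSSs, among them those of Zfp212 and Zfp956. A domain on chromosome 10 (43254001 to 43632000) had 7, of which 4 were at TSSs, including those of Aim1 and Bend3. Domains on chromosome 2 (121940001 to 122500000), chromosome 6 (128484001 to 129240000) and chromosome 12 (70416001 to 70700000) had 6 each. TSS peaks there belonged to Eif3j, a translation initiation factor, and Slc30a4, a zinc transporter, on chromosome 2, to Clec12a and Fkbp4, a co-chaperone of HSP90, on chromosome 6, and to Pole2, a subunit of DNA polymerase epsilon, and Sos2, an activator of RAS, on chromosome 12.

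Gaps under 200 kb between neighbouring domains held few peaks apart from that on chromosome 6. A gap of 180 kb on chromosome 7 held 2, including that at the start of Grlf1. A gap of 160 kb on chromosome 5 held 1, at Atp2a2, the calcium pump of the endoplasmic reticulum. Another of 180 kb on chromosome 16 also held 1, at Atp13a3, and the other 3 gaps held 0.

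Border peaks were more isolated from other peaks than far peaks. The median distance to the next peak was 24.0 kb (quartiles 8.04 and 75.04 kb), against 14.6 kb (3.94 and 40.6 kb) for far peaks, and 24.2 kb without the margin. Another peak lay within 10 kb of 27.9% (23.8 to 32.5%) of border peaks and of 41.8% (41.0 to 42.6%) of far peaks. Peaks overlapping a domain are not listed as peaks, so a border peak has neighbours on its outer side mainly, and what part this had was not tested.

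The central 300 bases of border peaks were more often rich in CpG dinucleotides, a property of the promoters of broadly expressed genes. A CpG ratio, observed over that predicted from base composition, above 0.6 with a GC content above 50% was found in 40.1% (35.5 to 45.0%) of border peaks and in 29.5% (28.8 to 30.2%) of far peaks. Among TSS peaks the shares were 59.8% (53.4 to 65.9%) and 55.6% (54.4 to 56.7%), whose intervals overlapped, and among the promoters of all autosomal coding genes 42.6%. Away from TSSs the share was 12.6% (21 of 167, 8.37 to 18.5%) in border peaks and 5.53% (439 of 7934, 5.05 to 6.06%) in far peaks. Without the margin it was 11.5% (7.42 to 17.5%), against 6.01% (4.69 to 7.68%) for such peaks at 100 to 500 kb, where the intervals overlapped slightly.

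Motif letters differed little. The ETS letters (CCGGAAG), read by a family that includes PU.1 and ETS1 in B cells, were present in 10.5% (7.84 to 13.9%) of border peaks and in 7.08% (6.69 to 7.501%) of far peaks. At TSSs the shares were 15.0% (11.0 to 20.1%) and 11.0% (10.3 to 11.8%), with overlapping intervals, and 10.9% of all promoters held them. They overlap in part with those searched for PU.1 (GAGGAAGT), found in 4.49% of border and 4.06% of far peaks. The GC box was found in 27.7% against 25.6%, and the E-box of MYC and MAX (CACGTG) in 8.23% against 10.2%. The CTCF core was present in 2 border peaks (0.499%, 0.137 to 1.80%) and in 0.821% of far peaks. Runs of 4 G tracts with loops of 1 to 7 bases, a sequence able to form a G-quadruplex, were found in 11.2% (8.49 to 14.7%) and 11.8% (11.3 to 12.4%). The intervals for these overlapped between border and far peaks in each case except ETS over all peaks.

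Of all autosomal coding genes, 2.86% started in the border, so that lists of this size hold few such genes. Of 12 gene lists, members with a border peak at a start were found in a pair of lists. In the list of class switching and break repair, 2 of 22 genes had one. These were Msh6, a mismatch recognition protein that takes part in class switching, with a peak of 2087 bp at 44.7 kb from a domain on chromosome 17 (88373220 to 88375306), and Rnf8, a ubiquitin ligase that acts upstream of 53BP1 at broken DNA, with a peak of 740 bp at 51.2 kb (29751192 to 29751931, chromosome 17). In the list of CTCF and cohesin, 1 of 12 had one. This was Pds5b, a regulator of cohesin, with a peak of 3031 bp on chromosome 5 (151475010 to 151478040) at 35.0 kb from a domain of 2274 kb. Their upstream sequences are printed above. These shares, 9.09% and 8.33%, are above the 1.14% of all coding genes but rest on 2 genes and 1 gene, and no list is read as standing apart.

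The other lists were the B cell transcription factors, B cell receptor signalling, B cell surface and activation, LPS and IL-4 signalling, the NF-kappaB pathway, replication licensing and firing, the BCL2 family and T cell, myeloid and neuronal genes. Lyz2, the lysozyme gene of myeloid cells, and Rbfox3, a neuronal splicing factor, started in the border without a peak, at 80.6 and 47.1 kb. The remaining members of these lists started elsewhere. Of the B cell transcription factors, 16 of 25 (64.0%) started inside a domain, among them Irf4, Bcl6, Bach2 and Ikzf3, and 0 in the border, against 23.0% of all autosomal coding genes inside a domain. The share inside domains was 55.6% for the BCL2 family, 52.0% for surface and activation genes, 50.0% for myeloid genes, 47.4% for the NF-kappaB pathway, 38.5% for receptor signalling, 33.3% for T cell genes and 29.4% for replication. It was 25.0% for CTCF and cohesin, 18.2% for LPS and IL-4 signalling, 13.6% for class switching and break repair and 0% for neuronal genes. High shares were thus not limited to B cell genes. Listed peaks do not measure expression, but the defining genes of the cell types were looked up. Of 6 B cell markers, Cd79b and Pax5 had a peak at a start and 4 started inside a domain. Of 5 T cell and 5 myeloid markers, 0 had a peak, and 2 and 3 started inside a domain. In the longer lists, 2 of 10 T cell, 1 of 7 myeloid and 4 of 13 neuronal genes that start outside domains had a peak. Over all autosomal coding genes that start outside domains the share was 44.5% (7328 of 16483). In the remaining lists it ran from 62.5% (BCL2 family, 5 of 8) to 94.7% (class switching and break repair, 18 of 19), so high shares were not limited to B cell genes here either.

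At the limit of 100 kb, peaks on either side were alike in kind. The last peaks inside it lay at 99.819, 99.875 and 99.880 kb, the first of them over Gm12609 on chromosome 4 (896 bp), the second at Nipal4 on chromosome 11 (782 bp) and the third at Arhgap26 and Spry4 on chromosome 18 (2252 bp). The first peaks outside lay at 100.471 kb, at Schip1 on chromosome 3 (2555 bp), at 100.529 kb in Lpp on chromosome 16 (1430 bp) and at 100.763 kb at Gm13201 on chromosome 4 (1513 bp).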

How the data were processed

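RIF1 ChIP-seq of activated B cells (2 Rif1FH and 2 Rif1WT samples) was deposited as 1 list of chromosome, start and end. The positions were used as they stood, with no score, p-value or value per sample. The authors trimmed reads with Trim Galore (v0.6.4), kept unique alignments to mm9 by Bowtie (v1.0.0), called narrow and broad peaks with MACS2 (v2.2.6) and RADs with EDD per replicate, merged them with bedtools (v2.27.1) and kept calls found in both replicates. Unique alignment leaves out reads that align to several places, and peaks overlapping RADs were not counted as peaks. Calling thresholds and any excluded regions are not given in the sources used here. The antibody label names the anti-CD43 beads used for isolation, and the protocol an anti-HA antibody.

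Intervals of at least 50 kb were taken as domains. Peaks were assigned first to a TSS (within 1 kb of any transcript start), then to a gene body, then to intergenic sequence, with GENCODE genes of the same build. Densities are per Mb without N. Motifs were searched in the central 300 bases of peaks and from 250 before to 50 after gene starts. With no values per sample no test was made. Shares have Wilson, differences Newcombe and densities exact Poisson intervals (95%), which cover counting error only. Distances and assignments were tested on simulated data and recovered in 20 of 20 sets. Named are the 10 coding genes with the most border peaks (ties by symbol), the 10 nearest to a domain with a peak at a start, the 5 widest peaks, the 5 domains and 3 gaps with the most peaks, list members with such a peak, and 3 peaks on each side of the limit. The members, lists and motifs were chosen with earlier results of these data known. Alternatives were other borders, widths, TSS windows, reference peaks and autosomes left out. Scripts used numpy 2.4.6 and scipy 1.17.1 on Python 3.11.15, with samtools 1.23.1, pysam 0.24.0 and matplotlib 3.10.9.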

Additional observations from a re-analysis of the deposited data

How the results depend on the processing

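Under other settings 10 results gave 128 comparisons, of which 105 stayed within their limits, 23 moved and 0 changed direction. The limit was 1.5 times for the count, 1 SD over autosomes for width and GC, and the 95% interval of the main value for the rest. The SD is wide, and the width difference of -140 bp ran from -230 to -83.5 bp. With a border of 50 kb there were 127 border peaks at 4.55 per Mb, and 31.6% of domains had one. Coding starts with a peak were then 29.9% (-14.8 points against far). The intergenic difference was -1.96 points (-8.93 to 6.37) and the TSS difference 8.58 points (-0.149 to 16.9), so the direction of both was not resolved. With 200 kb there were 966 peaks at 8.83 per Mb beside 86.0% of domains. Peaks at or above the median width numbered 172 (3.10 per Mb), with 73.8% at TSSs (15.6 points above far), 22.2% of coding starts with a peak and 44.9% of domains. Domains at or above their median width had 187 border peaks. TSS windows of 0.1 and 5 kb gave TSS shares of 51.9 and 69.6%, and the latter 42.7% of coding starts. Against peaks 100 to 500 kb away the coding start difference was -0.395 points. From 20 to 100 kb, chosen after seeing the data, the density was 8.78 per Mb and coding starts with a peak 43.3% (-1.36 points, -5.55 to 2.92). Omitting the chromosome 6 gap, also chosen after seeing the data, moved no result beyond its limits. The causes were not tested. Counts and densities change with the border by construction.

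No paired analysis was possible because both replicates were combined before deposit, and settings that leave out a replicate were not run. Read depth is unknown, and an empty start means that no peak was listed there. A stricter calling threshold was not tried, since intervals carry no score.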
